A study of Mus musculus with 30 samples.

Results

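Myogenin, HDAC4 and the factors around them were followed across 2 muscles of mice with a spinal cord injury. The set held 8 genes, taken by symbol from the deposited table of 11249 genes: Myog, Myod1 and Myf6 of the myogenic basic helix-loop-helix (bHLH) family, the class IIa histone deacetylases Hdac4 and Hdac5, and the MEF2 factors Mef2a, Mef2c and Mef2d. All 8 were in the table, and all 8 passed the filter on low values in every comparison. Male mice had a sham operation or a transection of the cord at the third (T3, high) or ninth (T9, low) thoracic level, and muscle was taken 3 days later. The labels give neither strain nor age, nor any allele or agent beside the surgery. Poly(A) RNA was sequenced from the gastrocnemius, a calf muscle supplied from below both lesions, and from the triceps brachii, an upper-arm muscle supplied from above them. There were 4 gastrocnemius libraries and 6 triceps libraries per surgery, 30 in all. The sample names give 12 mouse numbers that carry a library of each muscle, and these were read as the same mice.

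In adult muscle the myogenic bHLH factors are held low by the activity of the motor nerve. In denervated mouse muscle HDAC4 enters the nuclei of the fibres, represses the corepressor gene Dach2, and myogenin then rises and switches on acetylcholine receptor and atrophy genes. The lesion here was of the cord and not of the motor nerve. Only RNA was measured, so the place of HDAC4 in the cell and the order of these steps were not tested. Class IIa deacetylases such as HDAC4 and HDAC5 bind MEF2 proteins and silence their targets, until calcium-dependent and other kinases drive them out of the nucleus.

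On GRCm38 (GENCODE vM21), Myog lies at chr1:134289989-134292548, Myod1 at chr7:46376474-46379099 and Mef2c at chr13:83504034-83667080, with Mef2d at chr3:88142372-88172086, all on the plus strand. On the minus strand lie Myf6 at chr10:107492853-107494737, Hdac4 at chr1:91928779-92195699, Hdac5 at chr11:102194432-102230166 and Mef2a at chr7:67231163-67372858.

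Promoter sequences are shown for Myog, Mef2a and Hdac5 of the set, and for Chrna1. Myog and the acetylcholine receptor subunit gene Chrna1, whose pattern over the libraries was nearest to that of Myog, are textbook E-box genes. Of the 6 genes of the set with windows, only Mef2a and Hdac5 held an exact match to the MEF2 consensus used here. The letters ctatatttat in the Myog window differ from that consensus in the last base alone, and so are not marked. The sequences are RefSeq windows on GRCm38.p6, each from 250 bases before to 50 bases after a gene's start. They lie at chr1:134289754-134290053 on the plus strand for Myog, and on the minus strand at chr2:73580289-73580588 for Chrna1, chr7:67372809-67373108 for Mef2a and chr11:102230123-102230422 for Hdac5. Capitals mark the E-box CANNTG and the MEF2 consensus YTAWWWWTAR, where Y is C or T, W is A or T and R is A or G.
Myog: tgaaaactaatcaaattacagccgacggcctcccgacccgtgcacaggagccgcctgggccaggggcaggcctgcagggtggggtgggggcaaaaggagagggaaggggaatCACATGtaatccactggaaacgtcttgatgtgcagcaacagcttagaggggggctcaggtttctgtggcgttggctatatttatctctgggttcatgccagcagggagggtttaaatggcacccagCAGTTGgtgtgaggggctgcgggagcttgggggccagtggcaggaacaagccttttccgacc
Chrna1: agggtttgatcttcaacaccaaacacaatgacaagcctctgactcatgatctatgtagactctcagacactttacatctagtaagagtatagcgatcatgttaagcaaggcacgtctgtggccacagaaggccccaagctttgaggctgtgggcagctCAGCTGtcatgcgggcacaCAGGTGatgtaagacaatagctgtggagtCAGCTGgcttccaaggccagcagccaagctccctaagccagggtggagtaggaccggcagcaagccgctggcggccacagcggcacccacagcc
Mef2a: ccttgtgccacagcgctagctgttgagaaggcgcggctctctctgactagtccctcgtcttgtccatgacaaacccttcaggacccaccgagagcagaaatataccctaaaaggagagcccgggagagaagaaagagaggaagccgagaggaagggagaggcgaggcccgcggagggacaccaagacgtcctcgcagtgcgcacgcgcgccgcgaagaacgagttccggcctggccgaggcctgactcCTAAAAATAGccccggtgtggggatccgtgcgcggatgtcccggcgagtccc
Hdac5: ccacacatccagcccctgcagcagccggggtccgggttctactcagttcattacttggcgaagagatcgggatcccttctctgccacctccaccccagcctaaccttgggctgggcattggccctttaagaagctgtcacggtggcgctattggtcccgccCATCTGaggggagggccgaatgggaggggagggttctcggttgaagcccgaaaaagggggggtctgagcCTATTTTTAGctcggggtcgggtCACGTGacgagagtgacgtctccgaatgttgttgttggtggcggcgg

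Both strands were searched. The Myog window held CACATG starting 138 bases and CAGTTG starting 12 bases before the start. The Chrna1 window held 3 E-boxes, starting 92, 73 and 44 bases before the start. The MEF2 consensus match in Mef2a, CTAAAAATAG, began 2 bases before the start, and that in Hdac5, CTATTTTTAG, began 20 bases before it. The Hdac5 window also held CATCTG and CACGTG. E-boxes were common, in 72.3% of all 32851 windows, and 3 or more stood in 17.6%. The MEF2 consensus stood in 3.19% of windows. The windows of Hdac4 and Mef2d held none of these letters, and Mef2c had E-boxes in 2 of its 3 windows. Myod1 and Myf6 are named only. A match describes these letters and is no evidence of binding.

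Values are read counts scaled to the library total (CPM). The deposited values were scaled to total reads, and the median gene stood 0.27 higher (log2) after T3 and 0.40 higher after T9 than in sham gastrocnemius. After each library was centred on its median, the gastrocnemius calls split into 1641 higher and 1627 lower after T3 in place of 3046 and 748, and into 1247 higher and 1397 lower after T9 in place of 4226 and 638. In the triceps after T3 the split became 1140 higher and 894 lower in place of 2138 and 486. Centred values are therefore given below beside the main ones. Library medians lay between 3.66 and 4.06 (log2 CPM) in sham gastrocnemius, and between 4.05 and 4.33 in the injured gastrocnemius. The gastrocnemius medians after T9, 4.27 to 4.33, were above all its sham medians and above those of the triceps after T9 (3.67 to 4.03). The library median thus ran with surgery and muscle. Fits with it as a covariate take out part of these contrasts, so a call lost there cannot be told apart from that removal. Libraries of a group differed by more than sampling noise in all 63 pairs. Within a muscle each library carries its own mouse number, but the labels do not state that these are separate animals. The p-values compare mean differences with the spread between these samples. Muscle fibre markers summed to 108377 CPM or more in every library. Depth, in units of 1000000 reads, was 13.3 to 23.4, apart from triceps T3 replicate 5 with 88.8. In bulk muscle, more cells of a type and more RNA per cell cannot be told apart.

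In the gastrocnemius, Hdac4, Myog, Myf6 and Mef2a rose after both lesions, Myod1 rose after T9, Mef2d rose after T3, and Mef2c fell after T3. The T3 rises of Mef2d and Mef2a were not called after centring. Of the 8 genes, 6 passed the test after T3 (5 higher, 1 lower) and 5 after T9 (all higher), at a Benjamini-Hochberg adjusted p under 0.05 in limma over all genes. The background was high: 33.7% of all genes passed after T3 (27.1% higher, 6.65% lower) and 43.2% after T9 (37.6% higher). The T3 libraries lay wholly above sham for 5 of the 8 genes and wholly below for 1, against 23.9% and 5.81% of all genes. The T9 libraries lay wholly above sham for 5, against 34.8% of all genes. The median log2 change of the 8 was 0.95 after T3 and 1.42 after T9, beside 0.27 and 0.40 over all genes.

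**Figure D1:**
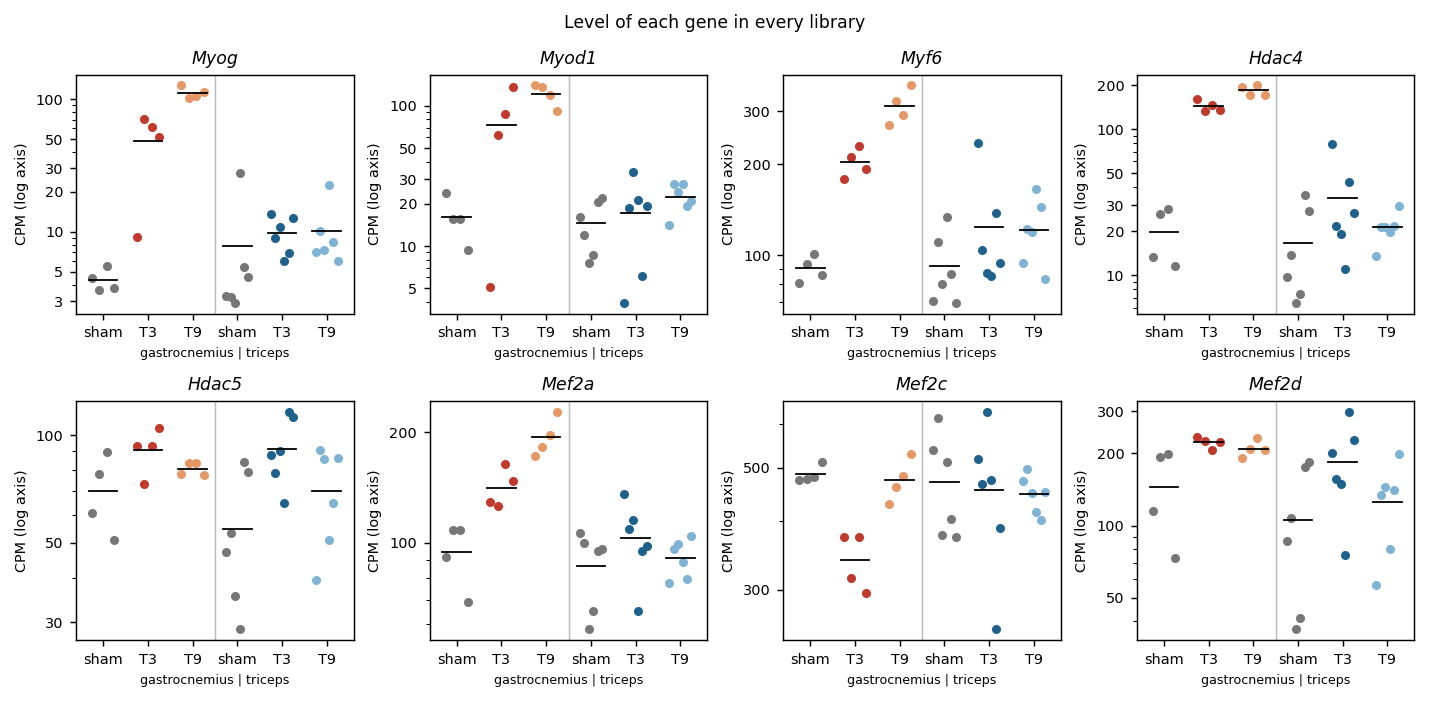
CPM of the 8 genes in each library (points, log axis) with the group mean (line), for sham, T3 and T9 in the gastrocnemius (left of the grey line, 4 libraries each) and the triceps (right, 6 each). Hdac4 lies at 11.5 to 28.3 CPM in sham gastrocnemius and at 133 to 199 CPM in the injured gastrocnemius, and a single T3 library is low for both Myog and Myod1.

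Myogenin, the bHLH factor that drives terminal differentiation of myoblasts, had the largest log2 change of the 8 in the gastrocnemius. Myog stood at 4.52, 3.68, 5.52 and 3.79 CPM in the 4 sham libraries, at 9.19, 70.9, 61.2 and 52.0 CPM after T3, and at 127, 102, 105 and 113 CPM after T9. All injured libraries were above all sham libraries, and T3 replicate 1 lay far below the other T3 libraries. The log2 change was 3.13 ± 0.48 (SE, n = 4 per group) after T3, an 8.74-fold rise, with adjusted p = 0.00036 in limma. After T9 it was 4.68 ± 0.48, a 25.7-fold rise (adjusted p = 2.6e-05 in limma). After centring the changes were 2.85 and 4.28.

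Myod1 encodes MyoD, which commits cells to the muscle lineage and marks activated satellite cells. Its CPM was 23.8, 15.5, 15.5 and 9.43 in sham, 5.14, 62.2, 88.0 and 137 after T3, and 140, 136, 120 and 92.3 after T9. T3 replicate 1 was below every sham library, while the other 3 T3 libraries and all T9 libraries were above them. After T9 the log2 change was 2.98 ± 0.73 (SE, n = 4 per group; adjusted p = 0.0071 in limma), and 2.58 after centring. After T3 it was 1.54 ± 0.73 and did not pass (adjusted p = 0.12 in limma). Without T3 replicate 1 it was 2.57 with adjusted p = 0.00021. With the library median as a covariate, which ran with surgery in the gastrocnemius, the T9 change was 0.82 and was no longer called.

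Myf6 encodes MRF4, the bHLH factor that is most abundant in adult fibres. Its CPM was 80.7, 93.7, 101 and 86.0 in sham, 178, 211, 229 and 193 after T3, and 269, 325, 291 and 365 after T9. The 3 groups did not overlap. The log2 change was 1.16 ± 0.14 after T3 and 1.78 ± 0.14 after T9 (SE, n = 4 per group), with adjusted p of 5.9e-05 and 4.7e-06 in limma, and 0.89 and 1.39 after centring. Per kb of annotated exon Myf6 was the highest of the 8 in every group, at 71.6 ± 7.05 CPM per kb in sham gastrocnemius and 247 ± 33.2 after T9 (SD, n = 4).

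Hdac4, the deacetylase at the head of the circuit described in denervated muscle, was higher in every injured gastrocnemius library than in any sham one. It stood at 13.3, 26.2, 28.3 and 11.5 CPM in sham, at 161, 133, 146 and 136 CPM after T3, and at 194, 172, 199 and 171 CPM after T9. The 3 groups did not overlap, and all 4 T3 libraries, replicate 1 included, lay close together. The log2 change was 2.96 ± 0.25 after T3 and 3.32 ± 0.25 after T9 (SE, n = 4 per group), which is 7.79-fold and 9.98-fold, with adjusted p of 7.0e-06 and 3.6e-06 in limma. After centring it was 2.69 and 2.92. The exons of Hdac4 overlap those of Gm26720 on the opposite strand by up to 3536 bases. The kit marks strand, while the strand setting of the read counting is unknown here.

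Hdac5, the close relative of Hdac4, lay at 61, 78.1, 89.6 and 51.1 CPM in sham, at 93.2, 72.9, 93.1 and 105 CPM after T3, and at 77.7, 83.7, 83.7 and 77.3 CPM after T9. The groups overlapped. Its log2 change was 0.40 (95% interval 0.03 to 0.78) after T3 and 0.24 (-0.13 to 0.61) after T9. Neither passed in limma, with adjusted p of 0.087 and 0.27, and without sham replicate 3 the T3 change was 0.53 with adjusted p = 0.023. In sham gastrocnemius Hdac5 stood above Hdac4 per kb of exon, at 7.95 ± 1.97 against 1.25 ± 0.55 CPM per kb (SD, n = 4). After T9 Hdac4 was the higher, at 11.6 ± 0.94 against 9.18 ± 0.41 CPM per kb, and the libraries did not overlap in either group.

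The MEF2 proteins bind the control regions of muscle genes together with the bHLH factors. Mef2a stood at 91.4, 108, 108 and 68.8 CPM in sham, at 129, 126, 164 and 147 CPM after T3, and at 172, 182, 197 and 228 CPM after T9. The 3 groups did not overlap. The log2 change was 1.06 ± 0.16 after T9 (adjusted p = 0.00048 in limma) and 0.60 ± 0.16 after T3 (adjusted p = 0.014; SE, n = 4 per group). After centring the T9 change was 0.66 and passed, while the T3 change was 0.32 (adjusted p = 0.064) and was not called. With the library median as a covariate the T9 change was 0.42 (adjusted p = 0.18) and was not called. Mef2a shares 302 bases of exon with Lysmd4 on the opposite strand, which is also in the table.

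Mef2c, the MEF2 factor with the highest CPM here, stood at 476, 476, 480 and 512 in sham, at 374, 315, 374 and 296 after T3, and at 429, 460, 484 and 530 after T9. All T3 libraries were below all libraries of the other 2 groups, and T9 overlapped sham. The log2 change after T3 was -0.52 ± 0.12 (SE, n = 4 per group; adjusted p = 0.0064 in limma), a 1.44-fold fall. After centring it was -0.80, and with the library median as a covariate it was -0.44 (adjusted p = 0.076) and was not called. After T9 it was -0.03 (95% interval -0.30 to 0.23), and -0.43 after centring (adjusted p = 0.053).

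Mef2d, the third MEF2 gene, stood at 115, 193, 200 and 73.1 CPM in sham, at 234, 225, 206 and 224 after T3, and at 191, 209, 232 and 207 after T9. The T3 libraries were above all sham libraries by a small margin, and sham replicates 1 and 4 were low. The T3 change of 0.73 ± 0.25 (SE, n = 4 per group) passed in limma at adjusted p = 0.039. It did not pass after centring (0.45, adjusted p = 0.12) or when any 1 of 10 of the 12 libraries was left out, at values of 0.44 to 0.76. With the library median as a covariate it was -0.02. Sham replicate 4 also had the lowest library median of the gastrocnemius. The T9 change of 0.64 had adjusted p = 0.053 in limma, and it was called without sham replicate 2 (0.82) or replicate 3 (0.83).

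**Figure D2:**
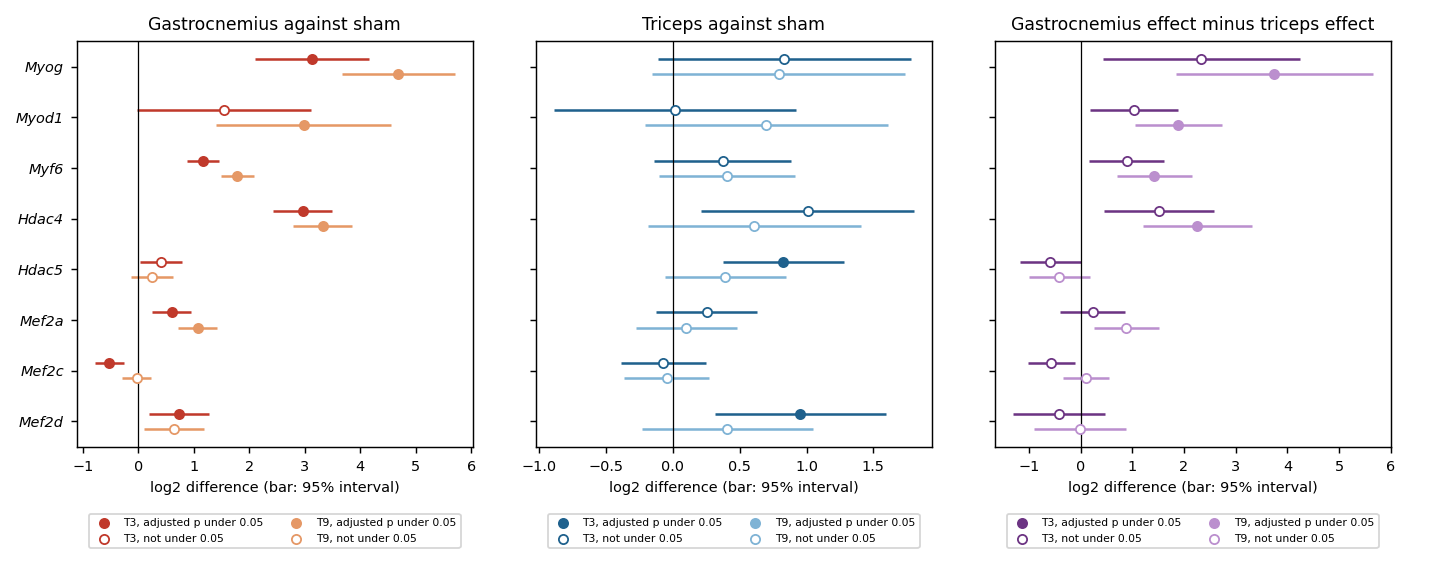
Log2 differences with 95% intervals for the 8 genes, against sham in the gastrocnemius (left, 4 libraries per group) and the triceps (middle, 6 per group), and the gastrocnemius effect minus the triceps effect (right, 12 mice). Filled points have adjusted p under 0.05 in limma. In the right panel Myog, Myod1, Myf6 and Hdac4 are filled for T9 and none is filled for T3.

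Between the lesion levels, the T3 values of 5 of the 8 genes lay below all T9 values in the gastrocnemius (Myog, Myf6, Hdac4, Mef2a and Mef2c), where 12.3% of all genes did so. Only Myf6 passed the test, at a log2 difference (T3 minus T9) of -0.62 ± 0.14 (SE, n = 4 per group; adjusted p = 0.040 in limma); 1.63% of all genes passed, 0.898% as lower. That call was lost when any 1 of 8 of the 12 libraries was left out, with adjusted p up to 0.15. Myog differed by -1.55 (adjusted p = 0.12), Mef2c by -0.49 (adjusted p = 0.069), Mef2a by -0.46 (adjusted p = 0.19) and Hdac4 by -0.36 (adjusted p = 0.55) in limma. Myod1 differed by -1.44 with overlapping groups, and Hdac5 and Mef2d by 0.16 and 0.09. Without sham replicate 4, Mef2a (adjusted p = 0.047) and Mef2c (adjusted p = 0.022) were called as well.

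The order of the length-scaled levels changed with injury in the gastrocnemius. In sham it ran from Myf6 through Mef2c, Mef2d, Myod1, Hdac5 and Mef2a to Myog, at 2.93 ± 0.57 CPM per kb, and Hdac4 (SD, n = 4). The neighbours from Mef2c to Mef2a overlapped in sham, and Myf6, Myog and Hdac4 stood clear of their neighbours. After T9 Myog was second at 74.8 ± 7.20 CPM per kb, overlapping with Myod1 at 65.5 ± 11.6 CPM per kb. After T3 the genes between Myod1 and Mef2c overlapped from neighbour to neighbour. Exon lengths cover all annotated isoforms and range from 1263 bases in Myf6 to 15813 bases in Hdac4, so these levels are approximate.

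**Figure D3:**
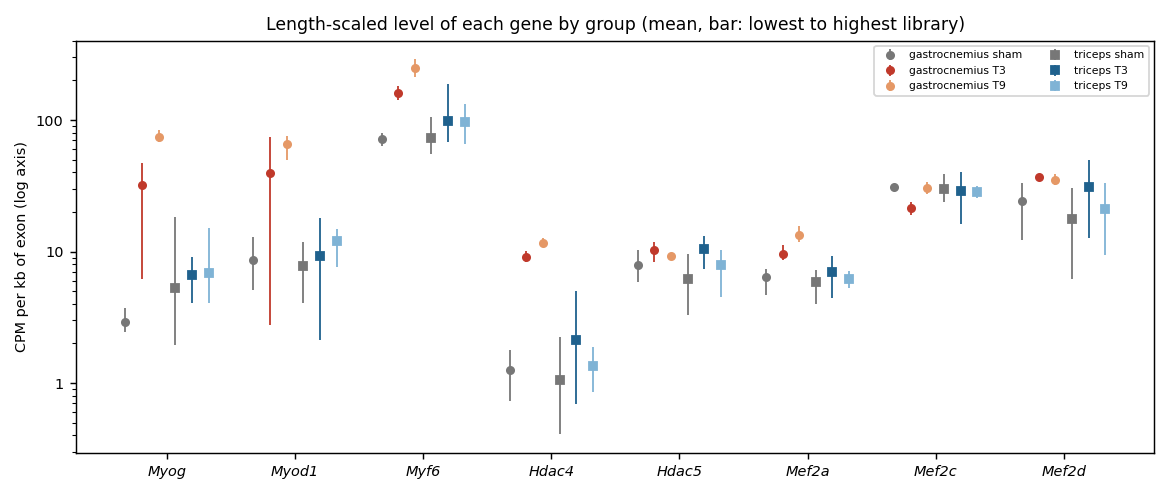
CPM per kb of annotated exon (log axis) for the 8 genes in the 6 groups; points are means and bars run from the lowest to the highest library (4 per group in the gastrocnemius, 6 in the triceps). Myf6 is highest in every group, and Hdac4 moves from 1.25 in sham to 11.6 after T9 in the gastrocnemius.

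In the triceps, above both lesions, Hdac5 and Mef2d rose after T3, and none of the 8 genes passed the test after T9. The Mef2d rise was not called with quantile normalization. After T3 2 of 8 passed in limma, Hdac5 and Mef2d, a share near that of all genes, of which 23.3% passed, 19% as higher. After T9 0 of 8 passed, where 0.00889% of all genes did (1 gene), and none of the 8 had an unadjusted p under 0.05. The same fit with voom weights on the recovered reads also called 0 of 8 after T9. The median change of the 8 was 0.60 after T3 and 0.41 after T9, beside 0.23 and 0.17 over all genes.

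Hdac5 ran from 28.7 to 84.1 CPM (median 50.1) in the 6 sham libraries, from 64.7 to 116 CPM (median 89.2) after T3, and from 39.3 to 90.7 CPM (median 75.2) after T9. T3 overlapped sham through sham replicates 5 and 6. These carry the number 57 in their names, which opens the names of 2 libraries per group, and the other 4 carry 60. The log2 change after T3 was 0.83 ± 0.21 (SE, n = 6 per group; adjusted p = 0.010 in limma with the number as a term). Within number 60 alone it was 0.99 (adjusted p = 0.039), and within 57 alone 0.49 (adjusted p = 0.18). After centring the T3 change was 0.59 (adjusted p = 0.015), and with the library median as a covariate it was 0.39 (adjusted p = 0.069) and was not called. After T9 it was 0.39 with adjusted p = 0.51.

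Mef2d ran from 37.1 to 184 CPM (median 96.9) in sham, from 75.2 to 298 CPM (median 179) after T3, and from 56.8 to 199 CPM (median 138) after T9. The groups overlapped widely. The T3 change was 0.95 ± 0.31 (SE, n = 6 per group; adjusted p = 0.031 in limma). Without 1 of sham replicates 3 and 4 or T3 replicates 1, 2, 3 and 5 it was 0.77 to 0.93 and was not called. Sham replicates 3 and 4 had the lowest library medians of the series, and without the 4 libraries of lowest median the change was 0.50. It was 1.16 within number 60 and 0.54 within 57, with neither called, and 0.72 after centring (adjusted p = 0.037). With quantile normalization it was 0.71 (adjusted p = 0.081 in limma) and was not called. With the library median as a covariate it was 0.21 (adjusted p = 0.28) and was not called.

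Hdac4 ran from 6.47 to 35.2 CPM (median 11.7) in sham, from 11 to 79.2 CPM (median 24.1) after T3, and from 13.5 to 29.9 CPM (median 21.5) after T9. The groups overlapped, and all triceps libraries lay below the lowest injured gastrocnemius library. The log2 change was 1.01 after T3 (95% interval 0.21 to 1.80; adjusted p = 0.062 in limma) and 0.61 after T9 (-0.18 to 1.4; adjusted p = 0.54). It was called after T3 without sham replicate 5 (1.19) or T3 replicates 4 (1.22) or 6 (1.16). Within number 60 the T3 change was 1.45 and within 57 it was 0.12. The 2 sham libraries with number 57 held 35.2 and 27.7 CPM and the other 4 at most 13.8 CPM.

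Myog lay at 2.93 to 5.46 CPM in 5 sham triceps libraries and at 27.5 CPM in sham replicate 4. After T3 it lay between 6.07 and 13.6 CPM (median 9.89), and after T9 between 6.02 and 22.4 CPM (median 7.84). Every injured library stood above the 5 lower sham libraries. The T3 change was 0.83 (95% interval -0.11 to 1.78; adjusted p = 0.18 in limma), and without sham replicate 4 it was 1.31 with adjusted p = 0.0073. Sham replicate 4 was high in lysozyme transcript as well, with Lyz2 at 705 CPM where the remaining sham triceps spanned 9.01 to 25.9 CPM, and it held 85.8 CPM of the macrophage protease gene Ctss and 59.1 CPM of embryonic myosin Myh3. The 8 macrophage markers in the table summed to 979 CPM there, and to at most 75.7 CPM in every other triceps library. Their part in its Myog level was not tested.

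Myod1 ran from 7.57 to 22.1 CPM in sham, from 3.94 to 33.5 CPM after T3 and from 14.1 to 27.6 CPM after T9. Myf6 ran from 69.5 to 134 CPM in sham, from 85.4 to 235 CPM after T3 and from 83.2 to 166 CPM after T9. Mef2a ran from 58.2 to 135 CPM over the 18 triceps libraries and Mef2c from 254 to 633 CPM. The groups of these 4 genes overlapped in each case, and their changes against sham, from -0.07 to 0.70 on the log2 scale, did not pass in limma. The difference between T3 and T9 in the triceps passed for 0 of 8 genes, where 7.6% of all genes did, and none had an unadjusted p under 0.05. The largest was -0.69 for Myod1 (95% interval -1.59 to 0.22).

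A comparison within mice set the gastrocnemius against the triceps of the same mouse number. In sham mice 3 of 8 genes were called, all higher in the gastrocnemius: Mef2d by 1.13 ± 0.29, Hdac4 by 1.03 ± 0.35 and Hdac5 by 0.77 ± 0.19 on the log2 scale (SE, n = 4 mice), where 38.9% of all genes were called, 26.8% as higher. All 3 calls were lost without the mouse of triceps replicate 3, at 0.69, 0.67 and 0.58, and Hdac4 was also lost without the mouse of triceps replicate 2. After T3 5 of 8 were called (Hdac4 2.55, Myog 2.0, Myod1 1.55, Myf6 0.80, Mef2c -0.62) against 30.4% of all genes (20.5% higher, 9.95% lower). After T9 6 of 8 were called, all higher (Myog 3.42, Hdac4 3.29, Myod1 2.41, Myf6 1.34, Mef2d 1.11, Mef2a 1.11), against 53% of all genes, 41.9% as higher. All 4 mice showed the direction for these 6 genes, and the Mef2d call was lost without the mouse of triceps replicate 1 (0.89). After T3 the calls for Myog and Myf6 were lost without any 1 of the mice of triceps replicates 2, 3 and 4, and that for Mef2c without replicate 3.

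**Figure D4:**
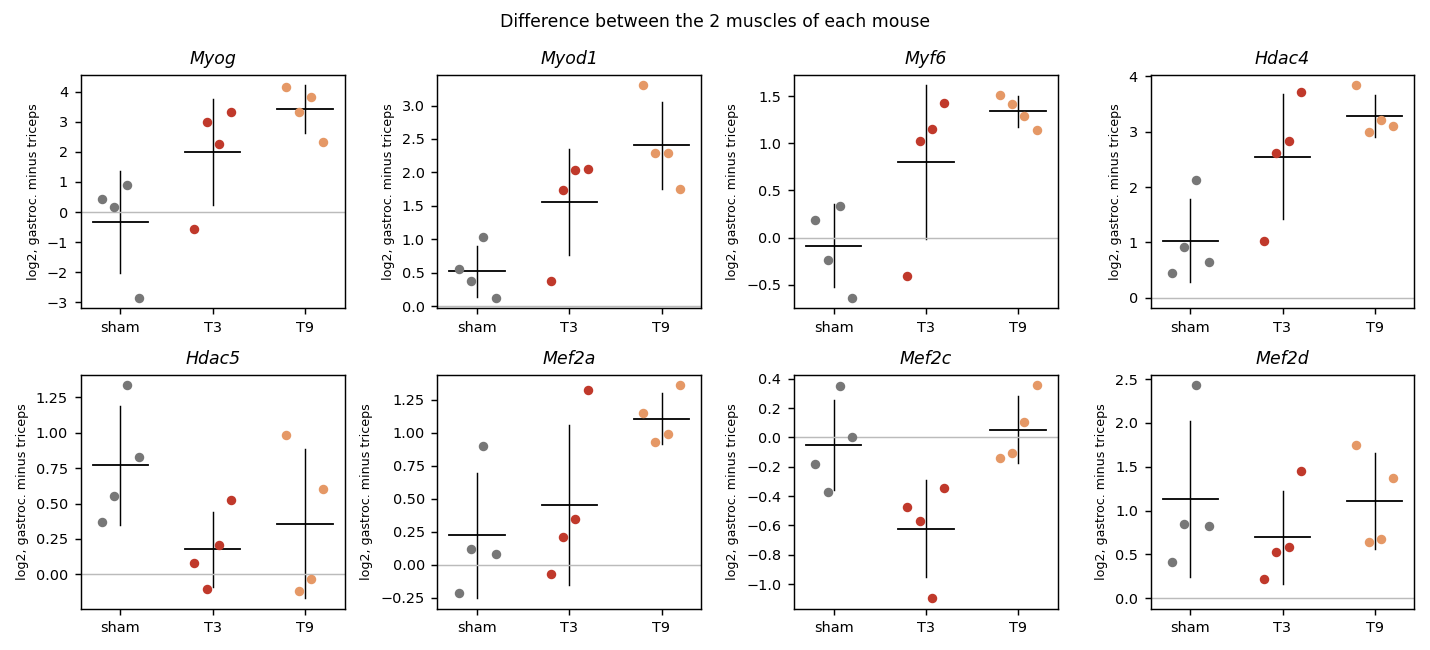
Log2 CPM in the gastrocnemius minus that in the triceps of the same mouse number (points), with the mean (horizontal line) and SD (vertical line) of 4 mice per surgery, for the 8 genes. After T9 the 4 mice lie between 2.33 and 4.17 for Myog and between 3.00 and 3.84 for Hdac4; 1 T3 mouse is below 0 for Myog and Myf6.

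The T9 effect was larger in the gastrocnemius than in the triceps for Myog, Hdac4, Myod1 and Myf6. The differences of the effects were 3.75 ± 0.88, 2.26 ± 0.49, 1.89 ± 0.39 and 1.42 ± 0.34 on the log2 scale (SE, n = 4 mice per surgery), with adjusted p of 0.023, 0.016, 0.013 and 0.024 in limma. Over all genes 6.95% passed this test, 3.76% as higher. Without the sham mouse of replicate 4, whose triceps library held 27.5 CPM of Myog, the difference was 2.91 for Myog (adjusted p = 0.057), 2.12 for Hdac4 (adjusted p = 0.052) and 1.24 for Myf6 (adjusted p = 0.077). The Myog call was also lost without the T9 mouse of triceps replicate 1 (3.50), 2 (3.78) or 3 (3.61), and the Myf6 call without that sham mouse, the sham mouse of replicate 2 or any 1 T9 mouse (1.24 to 1.49 in all). The Myod1 call was kept in all 12 fits that left out 1 mouse, but it was lost without the 4 libraries of lowest median (1.65, adjusted p = 0.066) and without the term for the mouse (1.89, adjusted p = 0.36). Mef2a differed by 0.88 (adjusted p = 0.094), and it was called without the sham mouse of replicate 3 (1.11) or the T3 mouse of triceps replicate 4 (0.88). Hdac5 differed by -0.41, Mef2c by 0.10 and Mef2d by -0.02, and these did not pass.

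For T3 the difference of the effects passed for 0 of 8 genes in limma, where 1.24% of all genes passed. On simulated data this test missed most of the smaller differences, so the count of 0 does not show that the effects were alike. The difference was 2.33 (95% interval 0.43 to 4.24) for Myog, 1.51 (0.45 to 2.57) for Hdac4, 1.03 for Myod1 and 0.89 for Myf6. Hdac5 (-0.59) and Mef2c (-0.57) went the other way. These 6 of the 8 genes had an unadjusted p under 0.05, a cut at which the share of all genes was not counted. With voom weights on the recovered reads 0 of 8 passed as well. With the library median as a covariate these 6 genes passed, where 11.5% of all genes did (1298 of 11249). Library weights gave calls for Hdac4, Myod1 and Myf6. Quantile normalization gave a call for Hdac4, where 2.81% of all genes passed. The T3 mouse that is replicate 1 in both muscles had the lowest Myod1 of its group in both muscles (5.14 and 3.94 CPM), and the highest Hdac4 in both (161 and 79.2 CPM). Without this mouse Hdac4 (2.02, adjusted p = 0.027) and Myf6 (1.29, adjusted p = 0.018) passed.

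Targets and partners of these factors were described from 12 gene lists, with the count of members called over all genes. Of 9 measured nerve-dependent targets of the HDAC4 and myogenin circuit, 8 rose in the gastrocnemius after each lesion, beside 27.1% and 37.6% of all genes, with medians of 2.19 and 2.29 on the log2 scale beside 0.27 and 0.40. In the triceps 3 rose after T3, beside 19% of all genes, and 0 after T9. Chrna1 went from 7.44 to 15 CPM in sham to 41.0 to 63.1 CPM after T3 and 70.4 to 162 CPM after T9. The receptor subunit gene Chrnd went from 0.95 to 2.32 CPM to 4.92 to 15.9 and then 25.8 to 64.0 CPM. The 3 groups did not overlap for either gene. Their log2 changes were 2.19 ± 0.26 and 3.32 ± 0.26 for Chrna1 and 2.63 ± 0.39 and 4.84 ± 0.39 for Chrnd (SE, n = 4 per group). Both were lower after T3 than after T9, by 1.13 (adjusted p = 0.047 in limma) and 2.21 (adjusted p = 0.019), calls that were lost when any 1 of 7 and 5 of the 12 libraries was left out. Gadd45a, a stress gene that acts downstream of HDAC4 in denervated mouse muscle, rose by 3.33 and 3.45 after the lesions. Musk, the kinase that organises the synapse, rose in the triceps after T3 by 1.62 (adjusted p = 0.011 in limma). Trim63, an atrophy gene of the list, took the opposite order to the receptor genes in the gastrocnemius. It stood at 189 to 422 CPM in sham, 1356 to 2391 CPM after T3 and 548 to 1099 CPM after T9. Between T3 and T9, 2 of the 9 targets were called lower and 0 higher. In the triceps Trim63 ran from 223 to 531 CPM in sham and from 565 to 2561 CPM after T3.

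Dach2, the corepressor gene placed between HDAC4 and myogenin, was low in the injured gastrocnemius. It stood at 3.02, 0.84, 2.1 and 3.59 CPM in sham, at 0.88, 0.75, 0.55 and 0.30 CPM after T3, and at 0.30, 0.59, 0.46 and 0.18 CPM after T9. Sham replicate 2, with 13 reads, overlapped with the T3 libraries, which held 5 to 16 reads, and all T9 libraries were below sham with 3 to 11 reads. The gene did not pass the filter on low values in the gastrocnemius. In the fit without a filter its log2 change was -1.82 ± 0.48 after T3 (adjusted p = 0.012 in limma) and -2.48 ± 0.48 after T9 (adjusted p = 0.0020; SE, n = 4 per group). The triceps libraries held 2.93 to 7.64 CPM in sham, 1.77 to 4.78 after T3 and 3.05 to 5.73 after T9, with no call. The T9 effect was lower in the gastrocnemius than in the triceps by -2.52 ± 0.52 (adjusted p = 0.012 in limma), and the call was kept in all 12 fits that left out 1 mouse. Over the 7 other HDAC4 relatives and partners the median log2 change was 0.35 after T3 and 0.58 after T9 in the gastrocnemius. Among them Nrip1, a corepressor of nuclear receptors, rose after T9 by 0.92 and the deacetylase gene Hdac3 by 0.64.

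Of 13 measured kinases of class IIa deacetylases, 6 rose and 1 fell after T3 in the gastrocnemius and 7 rose after T9, with medians of 0.57 and 0.79. Of all genes 27.1% rose and 6.65% fell after T3, and 37.6% rose after T9. After centring the counts were 4 higher and 2 lower, then 4 and 1. On that scale 1641 of 11248 genes rose and 1627 fell after T3, and 1247 and 1397 after T9. Sik1, a salt-inducible kinase, went from 3.24 to 7.88 CPM in sham to 44.4 to 69.2 CPM after T3 and 51.9 to 99.9 CPM after T9. Its log2 change was 3.21 after T3 and 3.65 after T9 (adjusted p of 8.4e-06 and 3.6e-06 in limma). In the triceps Sik1 ran from 1.83 to 14.5 CPM in sham and from 4.18 to 50.3 CPM after T3, a change of 1.61 (adjusted p = 0.021 in limma) that was lost without sham replicate 3 or T3 replicate 5. It was 1.65 within number 60 and 1.54 within 57, with neither called. Sik3 rose in the triceps after T3 by 1.27, and 1 more gene, Camk1, fell there by 0.79.

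**Figure D5:**
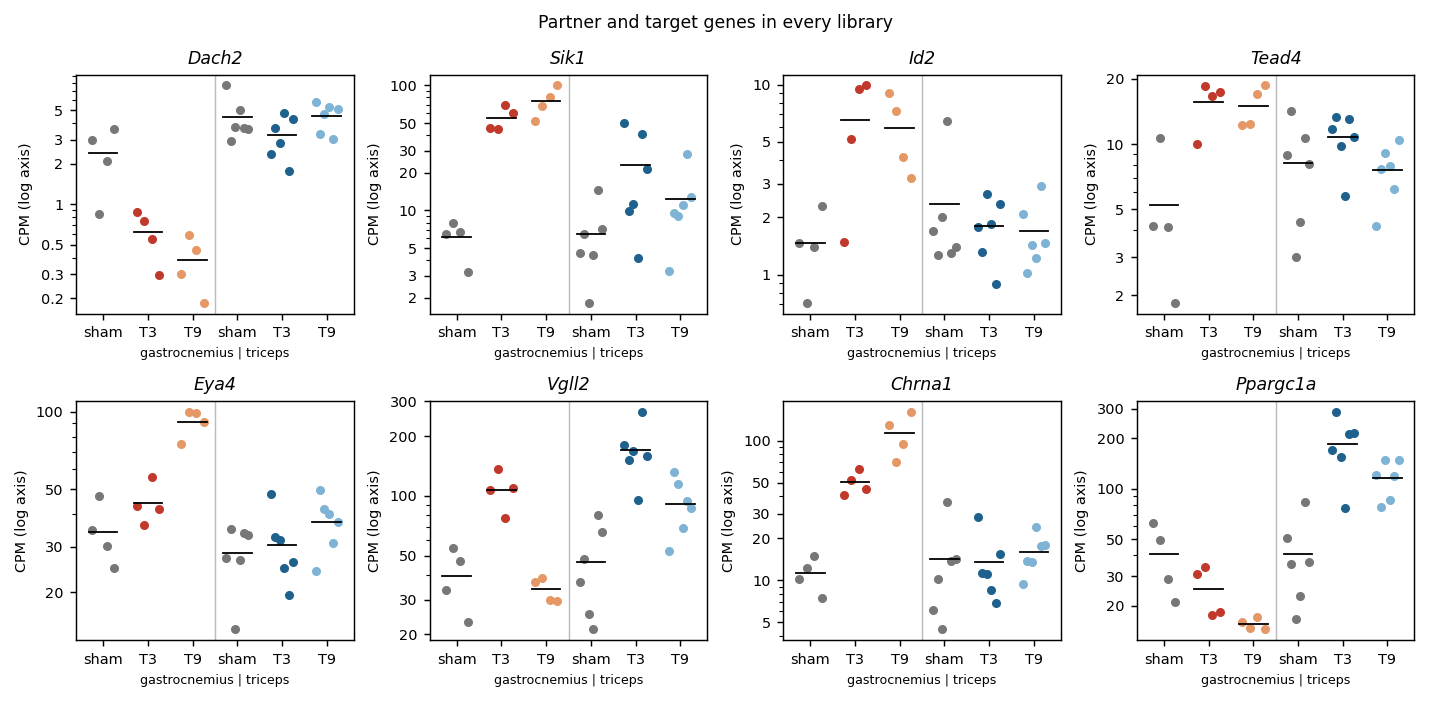
CPM (log axis) of 8 partner and target genes in each library (points) with the group mean (line), for sham, T3 and T9 in the gastrocnemius (left of the grey line, 4 libraries each) and the triceps (right, 6 each). Dach2 lies at 0.18 to 0.88 CPM in the injured gastrocnemius, Vgll2 is higher than in sham after T3 in both muscles, and Ppargc1a lies at 14.5 to 17.3 CPM in the gastrocnemius after T9 and at 76.6 to 287 CPM in the triceps after T3.

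Among 8 measured partners and inhibitors of the bHLH factors, 4 rose and 1 fell after T3 in the gastrocnemius, and 6 rose and 1 fell after T9, where 27.1% and 37.6% of all genes rose. After centring these were 3 and 1, then 2 and 1, where 1641 of 11248 genes rose after T3 and 1247 after T9. Id2, an inhibitor that ties up E proteins, stood at 1.46, 0.71, 1.4 and 2.30 CPM in sham, at 1.48, 5.15, 9.51 and 9.90 CPM after T3 and at 8.98, 7.26, 4.16 and 3.20 CPM after T9. T3 replicate 1, the library that was low for Myog and Myod1, stayed within the sham range. The log2 changes were 1.92 (adjusted p = 0.016 in limma) and 1.98 (adjusted p = 0.012). The T3 call was lost without T3 replicate 3 or 4, and the T9 change after centring was 1.58 and was not called. The T9 effect on Id2 was larger in the gastrocnemius by 2.69 (adjusted p = 0.010 in limma). Bhlhe41, a repressor that opposes MyoD, fell by 0.95 after each lesion in the gastrocnemius and by 1.21 after T3 in the triceps.

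Of 15 measured cofactors of the bHLH and MEF2 proteins, 7 rose and 2 fell after T3 in the gastrocnemius and 7 rose after T9. The shares of all genes that rose were 27.1% and 37.6%, and the list medians were 0.61 and 0.47 beside 0.27 and 0.40. After centring the counts were 6 and 3, then 5 and 2. Of 11248 genes, 1641 rose and 1627 fell after T3 on that scale, and 1247 and 1397 after T9. Tead4, a MyoD-induced factor that binds MCAT elements, rose by 1.82 and 1.78. Eya4, a transcriptional coactivator, stood at 24.8 to 46.9 CPM in sham, 36.4 to 55.8 CPM after T3 and 74.7 to 99.9 CPM after T9. The T9 libraries were above all others. The change was 1.45 after T9 (adjusted p = 0.00020 in limma), and the T3 level was lower than that after T9 by 1.05 (adjusted p = 0.023), a call that was lost when any 1 of 7 libraries was left out. Vgll2, a TEAD cofactor, took the opposite order, with 77.2 to 137 CPM after T3, 29.4 to 38.7 CPM after T9 and 23.1 to 54.8 CPM in sham. Its T3 change was 1.49 ± 0.25 (SE, n = 4 per group) and its T3 level was higher than that after T9 by 1.66 (adjusted p = 0.0094 in limma; lost without T9 replicate 4). In the triceps Vgll2 also rose after T3, by 1.98 (adjusted p = 0.00010 in limma), from 21.3 to 80.2 CPM in sham to 94.9 to 266 CPM.

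Most called genes among the 14 linked to MEF2 in muscle fell in the gastrocnemius. After T3 7 fell and 1 rose, and after T9 9 fell and 1 rose, with medians of -0.63 and -0.71, where 6.65% and 5.67% of all genes fell. After centring 9 and 10 fell and none rose, where 1627 of 11248 genes fell after T3 and 1397 after T9. In the triceps after T3 4 fell and 3 rose, with a median of -0.10, where 4.32% of all genes fell and 19% rose. Ppargc1a, the coactivator of oxidative genes, stood at 21.1 to 62.7 CPM in sham gastrocnemius and at 14.5 to 17.3 CPM after T9, a change of -1.25 (adjusted p = 0.0073 in limma). In the triceps it stood at 16.8 to 83.6 CPM in sham and at 76.6 to 287 CPM after T3, a rise of 2.27 (adjusted p = 9.9e-05 in limma). The difference of its effects was -3.04 for T3 (adjusted p = 0.00010 in limma) and -3.10 for T9 (adjusted p = 5.5e-05). The calcineurin-binding sarcomere gene Myoz2 moved in the same directions, by -1.51 in the gastrocnemius and 0.91 in the triceps after T3. Eno3, the muscle enolase, fell in both muscles after T3, by 1.4 and 1.02.

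Of 8 measured fusion and embryonic myosin genes, 1 rose after T3 in the gastrocnemius (Cdh15, the M-cadherin of satellite cells and myoblasts, by 1.35), and 4 rose and 1 fell after T9, beside 27.1% and 37.6% of all genes that rose. Embryonic myosin Myh3 stood at 3.12 to 4.92 CPM after T3 and at 62.1, 7.05, 12.2 and 71.4 CPM after T9, against 0.90 to 12.6 CPM in sham. Its T9 change of 2.77 passed (adjusted p = 0.013 in limma), with overlapping groups. Of 8 measured satellite cell markers, 2 rose after each lesion in the gastrocnemius: Sdc4 and Itga7 after T3, and Sdc4 and Myf5 after T9. That share is below the 27.1% and 37.6% of all genes that rose. The markers summed to 73.1 to 159 CPM in sham, 240 to 286 CPM after T3 and 165 to 200 CPM after T9 in the gastrocnemius. Pax7, Pax3, Calcr and Megf10 were not analysed here. Myf5, the fourth bHLH factor and a marker of satellite cells, rose after T9 by 1.27 ± 0.27 (SE, n = 4 per group), from 0.84 to 1.55 CPM to 2.28 to 3.95 CPM.

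Markers of other cells rose in shares near or below those of all genes, 27.1% after T3 and 37.6% after T9. Of 8 measured macrophage markers 1 rose after T3 and 3 after T9, and their sum ran from 20.3 to 61.9 CPM in sham, 42.6 to 51.8 CPM after T3 and 38.4 to 56.7 CPM after T9. Cd68 rose by 3.01 and 3.22 in the gastrocnemius and by 3.78 in the triceps after T3. Adgre1 and Itgam were not analysed here. Of 8 endothelial markers 1 rose after each lesion, and their sum went from 71.0 to 271 CPM in sham to 222 to 292 CPM in the injured gastrocnemius. Of 8 fibroblast markers 1 rose and 3 fell after T3, and 1 rose and 1 fell after T9. Their sum went the other way, from 580 to 832 CPM in sham to 846 to 1085 CPM after T3 and 781 to 1038 CPM after T9. Of 12 muscle fibre markers 2 rose and 4 fell after T3, and 1 rose and 4 fell after T9, where 6.65% and 5.67% of all genes fell. The part of these markers in the changes of the 8 genes was not tested.

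Likeness to Myog was measured as the root mean square difference of centred log2 values over the 30 libraries, for 10358 genes. The 5 nearest genes were Chrna1 (0.69), Aif1l (0.72), Chrnd (0.72), Rrad (0.77) and Tgif1 (0.80), where the spread of Myog itself was 1.71. Hdac4 ranked 37, Myod1 47 and Myf6 62 in likeness to Myog, and Mef2c 8304. The 5 genes nearest to Hdac4, whose spread was 1.53, were Slc43a2 (0.49), Ampd3 (0.51), Nfkb2 (0.54), Lpin2 (0.56) and Sik1 (0.57), and Myog ranked 1357 there. These distances share the 30 libraries and their depth, and they describe the pattern only.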

How the data were processed

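The deposited table holds log2 values, and the genome build GRCm38, HISAT2 2.1.0, featureCounts, Subread 1.5.1 and limma are named in the submitters' processing notes. The authors' log2 values are log2 read counts scaled to the library total (CPM), with an offset of 0.5 reads: undoing it gave whole reads for 100% of values within 0.01 of a read. CPM were computed from those reads. No label states multimapping or strand settings.

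The 8 genes, the lists and the tests were chosen with earlier results of these data known. The genes named are the 8, list members where their list is described, and the 5 genes nearest to Myog and to Hdac4 by root mean square difference over the libraries. Linear models were fitted in limma 3.58.1 (R 4.3.3) with a variance trend, two-sided, on genes with log2 of at least 0 in at least 4 libraries (11248 in the gastrocnemius, 11249 elsewhere). P-values were adjusted by Benjamini-Hochberg over all genes tested. The gastrocnemius fit took 12 libraries, and the triceps fit 18, adjusted for whether a sample name begins with 57 or 60. What these numbers mark is not stated. Muscles were compared in the 24 libraries numbered 60 with a fixed term per mouse number. Deviations from group means correlated at over 0.1 for 11 of 12 mouse numbers (mean 0.32, lowest -0.75 in a sham mouse, triceps replicate 3). Fits were tested on simulated data. Intervals at 95% are confidence intervals of the log2 difference, computed from the spread between libraries. GENCODE vM21 gave exons and RefSeq the promoters of 6 of the 8 genes. Alternatives covered normalization, filters, a pseudocount of 1 CPM, weights, blocks, label numbers and leaving out libraries. Some members of the lists are not reported here.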

Additional observations from a re-analysis of the deposited data

Results flagged for a closer look

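In 3 of the 48 groups of 1 gene in 1 group of libraries, a single library stood apart by its gap to the next value, a rule that chance meets in about 1 group in 20. Myog in gastrocnemius T3 replicate 1 was the lowest of its group at log2 3.21 (9.19 CPM). Myog in triceps sham replicate 4 was the highest of its group at log2 4.79 (27.5 CPM). Mef2c in gastrocnemius sham replicate 4 was the highest of its group at log2 9.0 (512 CPM), within a group that spanned only 476 to 512 CPM.

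The T9 effect differed between the muscles by limma's test of the difference itself for Myog (3.75 on the log2 scale), Myod1 (1.89), Myf6 (1.42) and Hdac4 (2.26). In each case the gastrocnemius had the larger rise.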

How the results depend on the processing

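Over 2288 recomputed changes of the 8 genes, 2063 kept their direction and side of the threshold, 89 lost and 48 gained a call, 86 that were not called changed sign, and 2 called changes changed sign, both for Mef2d with the library median as a covariate (-0.019 for T3 against sham in the gastrocnemius and -0.0043 between muscles after T9). Of the uncalled ones, Mef2d after T9 in the gastrocnemius went from 0.64 to -0.44 and Hdac5 from 0.24 to -0.44 with that covariate. That covariate left 3 called genes in place of 6 and 3 in place of 5 in the gastrocnemius (T3, T9), 0 in place of 2 in the triceps (T3), 0, 3 and 2 in place of 3, 5 and 6 between muscles (sham, T3, T9), and gave 2 for T3 against T9 in the gastrocnemius, 1 in the triceps and 6 for the T3 effect difference. The shares of all genes called with that covariate were 18.5% and 12.3% in the gastrocnemius (T3, T9) and 25.4% in the triceps (T3). Between muscles they were 2.74%, 17.4% and 17.9% (sham, T3, T9). They were 3.76% and 19.7% for T3 against T9 (gastrocnemius, triceps), and 11.5% for the T3 effect difference. For T3 against T9 in the gastrocnemius (1 called) the count was 2 with quantile normalization, 0 with centring or no variance trend, 4 with library weights or only the 2 groups compared, and 3 without the 4 lowest medians. For T3 in the triceps (2 called) it was 1 with quantile normalization, no label term or label 60 alone, and 0 with label 57 alone. Without the 4 lowest medians it was 0 between sham muscles and 1 in place of 4 for the T9 effect difference. For the T3 effect difference it was 1 with quantile normalization and 3 with library weights. Leaving out single libraries or mice gave 5 to 7 called (gastrocnemius T3), 5 to 6 (T9), 0 to 3 (T3 against T9), 1 to 3 (triceps T3), 0 to 3, 2 to 7 and 5 to 6 between muscles (sham, T3, T9), 0 to 2 (T3 effect difference) and 1 to 5 (T9 effect difference). Of 7902 recomputed changes of other named genes, 262 uncalled ones and 1 called one changed sign, the latter Eya4 in the triceps after T3 (-0.43 with that covariate). The cause of these shifts was not tested.

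Replicate numbers showed no pairing of the libraries within the gastrocnemius, where 3 of 12 correlations passed 0.1 (mean -0.02). In the triceps 10 of 18 passed (mean 0.17, from -0.63 to 0.84), so these values do not settle whether replicate numbers pair libraries there. A replicate block gave 0 called genes for T3 against T9 in the gastrocnemius, where Myf6 kept -0.62 with adjusted p = 0.070 in limma. Between muscles, no replicate block (the mouse number left out) gave 0 called genes in sham.

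Depth limits Dach2, at 3 to 16 reads in injured gastrocnemius, and other genes named at under 1 CPM.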
